A study of Rattus norvegicus with 13 samples.

Results

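The HOXD cluster is a run of 9 homeobox genes on rat chromosome 3, from Hoxd13 at its posterior end to Hoxd1 at its anterior end. Its members here are the peaks that the authors annotated to Hoxd1, Hoxd3, Hoxd4, Hoxd8, Hoxd9, Hoxd10, Hoxd11, Hoxd12 or Hoxd13, together with the differential sites overlapping them. Of these 9 genes 8 had a peak and so stand among the 21397 genes named in the 4 lists. Hoxd12 was named in none of the lists, so whether the annotation used by the authors holds it is unknown. The cluster was chosen because its ends leaned in opposite directions in the comparison of the Myocd-LSD1 with the Myocd-LSD1NF line. The direction of its differential sites is therefore described and not tested.

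The study mapped H3K4me2, dimethylated lysine 4 of histone H3, by CUT&Tag in cultured rat aortic smooth muscle cells (SMC). In this method an antibody tethers the transposase Tn5 to chromatin, and the DNA beside the bound epitope is cut and sequenced. The groups were control SMC, whose label gives the line as WT, cells of the Myocd-LSD1 line and cells of the Myocd-LSD1NF line (n = 3 samples each), and FLAG was mapped in FLAG-tagged Myocd-LSD1 cells (n = 4). All were grown in the same serum-containing medium. Myocd encodes myocardin, a coactivator of serum response factor, and LSD1 is a demethylase that removes methyl groups from lysine 4 of histone H3. The labels do not spell out NF, do not say how the fusions were expressed or whether a line is a clone, and leave unsaid whether same-group samples came from different cultures. Each group has 1 deposited peak list and read depth is unknown. Within each H3K4me2 list every peak name carries 1 alignment name that ends in -1, and whether the list was called on pooled samples or on replicate 1 alone is not stated, so comparisons between lists have no replicate error. Only Myocd-LSD1 and Myocd-LSD1NF cells have a replicate-based table, and it gives group means rather than values per sample. Its FDR weighs the difference between the lines against the spread between these samples, which may be technical. Of 7 smooth muscle marker genes, 7 had a promoter peak in control cells, 6 in the Myocd-LSD1 line and 7 in the Myocd-LSD1NF line. At most 1 of 5 endothelial, 1 of 5 macrophage and 1 of 4 fibroblast markers had one in any of the 3 lines. For scale, 65.8% (control), 64% (Myocd-LSD1) and 61.7% (Myocd-LSD1NF) of all named genes had one.

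HOX genes encode transcription factors that give cells their position along the body axis, and their order on the chromosome follows the order of the body regions in which they act. Active HOX genes carry methylated lysine 4 of histone H3, while silent ones are held by Polycomb complexes, and adult smooth muscle and fibroblasts are known to keep part of this positional pattern. In mouse limbs the cluster is contacted by enhancers in the gene deserts on either side, those beyond Hoxd13 acting on the posterior genes.

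The promoters of 4 members are shown because the results below concern their starts: Hoxd13 and Hoxd10, whose transcription start site (TSS) lies in a differential site, Hoxd9, which like Hoxd10 has a FLAG peak, and Hoxd1, whose TSS peak ranked differently in the lists. Each is the 250 bases before the start, 5′ to 3′ on the plus strand, from the RefSeq table of build GRCr8 (chr3:79977827-79978076, chr3:80001697-80001946, chr3:80007756-80008005 and chr3:80072791-80073040). Peaks and sites are placed on rn6, a different build; the start is that of the transcript version used in the lists for Hoxd13, Hoxd10 and Hoxd1 and of a later version of it for Hoxd9, and the correspondence of the builds base by base was not tested. Capitals mark CACGTG, a form of the E-box, a motif bound by basic helix-loop-helix factors.
Hoxd13: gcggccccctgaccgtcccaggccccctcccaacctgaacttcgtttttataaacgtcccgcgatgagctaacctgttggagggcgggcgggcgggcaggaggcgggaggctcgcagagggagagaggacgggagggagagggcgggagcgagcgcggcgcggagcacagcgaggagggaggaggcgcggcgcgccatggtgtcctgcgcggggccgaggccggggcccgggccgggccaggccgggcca
Hoxd10: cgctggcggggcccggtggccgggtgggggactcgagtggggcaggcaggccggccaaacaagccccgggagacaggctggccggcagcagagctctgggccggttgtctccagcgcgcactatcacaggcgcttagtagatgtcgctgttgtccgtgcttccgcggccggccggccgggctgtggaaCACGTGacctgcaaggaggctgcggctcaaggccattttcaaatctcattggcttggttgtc
Hoxd9: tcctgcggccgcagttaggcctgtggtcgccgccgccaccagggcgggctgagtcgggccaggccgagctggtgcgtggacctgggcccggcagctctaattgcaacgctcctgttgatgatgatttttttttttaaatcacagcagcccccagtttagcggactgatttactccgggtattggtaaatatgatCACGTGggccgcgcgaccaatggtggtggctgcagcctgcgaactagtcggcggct
Hoxd1: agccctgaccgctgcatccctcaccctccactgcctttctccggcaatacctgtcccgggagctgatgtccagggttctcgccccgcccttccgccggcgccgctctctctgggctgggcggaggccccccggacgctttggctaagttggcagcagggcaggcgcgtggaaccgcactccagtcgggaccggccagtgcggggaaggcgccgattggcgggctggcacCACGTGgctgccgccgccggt
All 9 members matched an entry of that table. CACGTG, which reads the same on both strands, occurred in 5 of the 9 promoters (Hoxd11, Hoxd10, Hoxd9, Hoxd3 and Hoxd1), against 5.59% of all 33469 promoters in the table and 9.51% of the 10759 whose number of CpG dinucleotides lay in the range of the members. In Hoxd10, Hoxd9 and Hoxd1 the motif began at -62, -56 and -21 from the start. The motif was picked after the sequences were seen. The CArG box, to which serum response factor binds, was searched on both strands and had no match in any of the 9 promoters. It matched 1.50% of all promoters and 1.16% of those in the CpG range of the members. TAATTA and TGATTNAT, searched on both strands, each matched the Hoxd11 promoter and no other member. They matched 4.86% and 2.82% of all promoters, and 1.28% and 0.753% of those in that CpG range. HOXD promoters were rich in CpG, with a median of 20 CpG in 250 bases against 5 over all promoters. They ranged from 11 in Hoxd3 and 12 in Hoxd4 to 30 in Hoxd13 and 38 in Hoxd8.

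The first question was where the mark was called along the cluster. Between the Hoxd13 TSS and the end of Hoxd1 (rn6, chromosome 3, 61590376 to 61687758, 97.4 kb), the control list had 13 H3K4me2 peaks, the Myocd-LSD1 list 13 and the Myocd-LSD1NF list 14. They covered 9559, 9823 and 9235 bp, or 9.82%, 10.1% and 9.48% of that span. Hoxd13, Hoxd11, Hoxd10, Hoxd9, Hoxd8, Hoxd4 and Hoxd1, 7 of the 9 members, had a peak within 3 kb of a TSS in each H3K4me2 list, where 65.8% (control), 64% (Myocd-LSD1) and 61.7% (Myocd-LSD1NF) of all named genes had one. The FLAG list had 2 peaks, at the promoters of Hoxd10 and Hoxd9, and 44.2% of all named genes had such a FLAG peak.

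**Figure D1:**
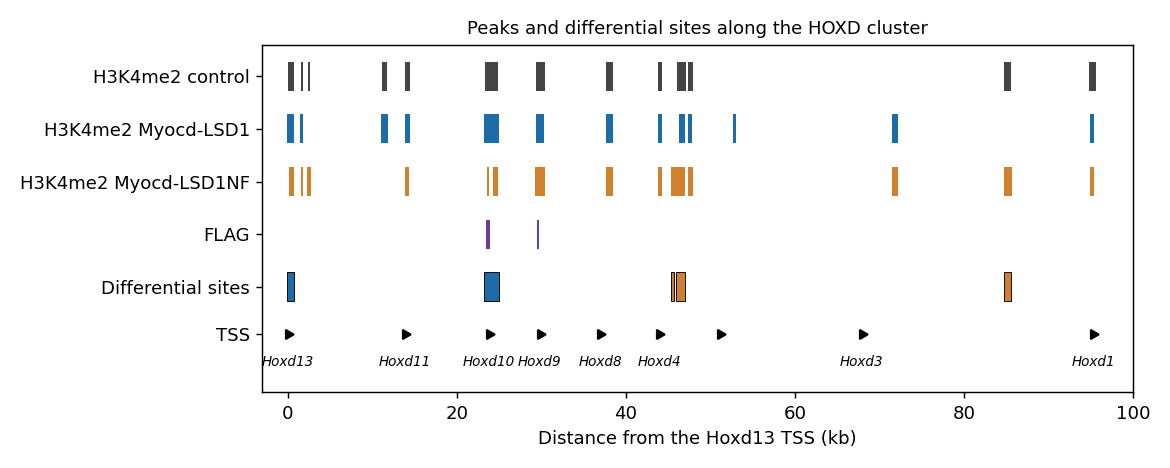
Bars show peaks called along the HOXD cluster (x axis, distance from the Hoxd13 TSS in kb) in the 3 H3K4me2 lists and the FLAG list, and the sites of the authors' differential table (blue, higher in Myocd-LSD1; orange, higher in Myocd-LSD1NF); triangles mark the annotated TSSs, Hoxd4 having a pair. The H3K4me2 lists hold 13, 13 and 14 peaks at mostly shared positions, the FLAG list 2, and the 5 sites lie at Hoxd13, Hoxd10, Hoxd4 and upstream of Hoxd1.

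Over the full lists most positions were marked in every line. Joined where they overlapped by at least 1 bp, the 40 H3K4me2 peaks formed 15 regions, of which 10 (66.7%) had a peak in all 3 lists, 4 in 2 lists and 1 in a single list; over the genome 51.9% of 56242 such regions had a peak in all 3. Pairwise, 11 of 13 control peaks overlapped a Myocd-LSD1 peak (78.9% of all control peaks did) and 12 of 13 a Myocd-LSD1NF peak (80.8%). Of the Myocd-LSD1 peaks, 11 of 13 overlapped a Myocd-LSD1NF peak (78.2%). There were 5 regions not shared by all lines. They lie past the Hoxd13 TSS, upstream of Hoxd11, past a Hoxd4 TSS, in a Hoxd3 intron and upstream of Hoxd1. With only the 50% of each list that had the strongest q-values, 2 of the 6 HOXD peaks left in each list overlapped both other lists. The majority does not hold there. The share over all peaks was not computed at that threshold, so the drop is not read as a trait of HOXD. A peak absent from a list can differ by depth alone.

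Within each list the HOXD peaks were of middling height. The deposited fold enrichment over background, which is the authors' value and is used only within a list, ran from 2.77 to 14.1 in control (median 6.23, against 6.29 for the whole list). In Myocd-LSD1 it ran from 3.45 to 10.6 (median 5.95, against 6.78). In Myocd-LSD1NF it ran from 2.81 to 13.8 (median 5.86, against 6.82). Peaks above their own list's median numbered 6 of 13, 6 of 13 and 4 of 14. By fold enrichment the highest HOXD peak was a different one in each list. It was the Hoxd1 TSS in control, a Hoxd3 intron in Myocd-LSD1 and the region upstream of Hoxd1 in Myocd-LSD1NF. The deposited peak score gave another order. By score a peak inside Hoxd4 came first in control (375). The Hoxd9 TSS peak came first in both Myocd-LSD1 (368) and Myocd-LSD1NF (496).

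**Figure D2:**
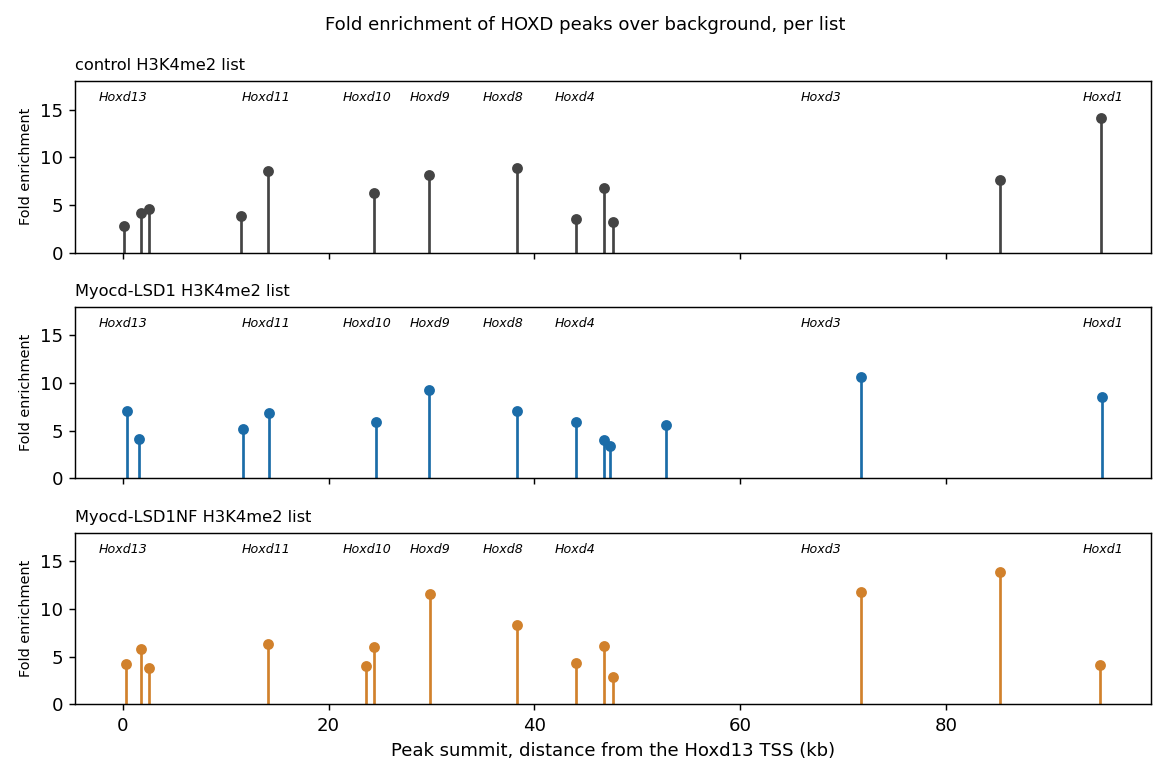
Each stem is a HOXD peak at its summit (x axis, distance from the Hoxd13 TSS in kb), with the deposited fold enrichment over background as its height (y axis, linear from 0), in separate panels for the 3 H3K4me2 lists; heights are to be read within a panel. The Hoxd1 TSS peak leads the control panel at 14.1 and stands at 8.50 and 4.14 in the others, while the peak upstream of Hoxd1 stands at 7.60 in control, is missing in Myocd-LSD1 and leads Myocd-LSD1NF at 13.8.

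The replicate-based comparison asked where H3K4me2 differed between Myocd-LSD1 and Myocd-LSD1NF cells. HOXD peaks overlapped 5 sites of the authors' deposited table, 2 higher and 3 lower in Myocd-LSD1. For scale, about 36354 sites were tested in the authors' deposited table, as estimated from its FDR and p columns, and 14.3% were called at an FDR of at most 0.05, 8.28% higher and 5.98% lower. In genomic order the sites lie at Hoxd13, Hoxd10, Hoxd4 (a pair) and upstream of Hoxd1, the first 2 higher and the last 3 lower. Of the 15 HOXD regions 4 (26.7%) held a site, against 9.17% of regions over the genome, and nothing is read from that share because the cluster was chosen on this table. None of the 5 sites was at the lowest value of its column in the authors' deposited table. The Myocd-LSD1 value upstream of Hoxd1 (0.68) was close to the lowest of its column (-0.08).

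**Figure D3:**
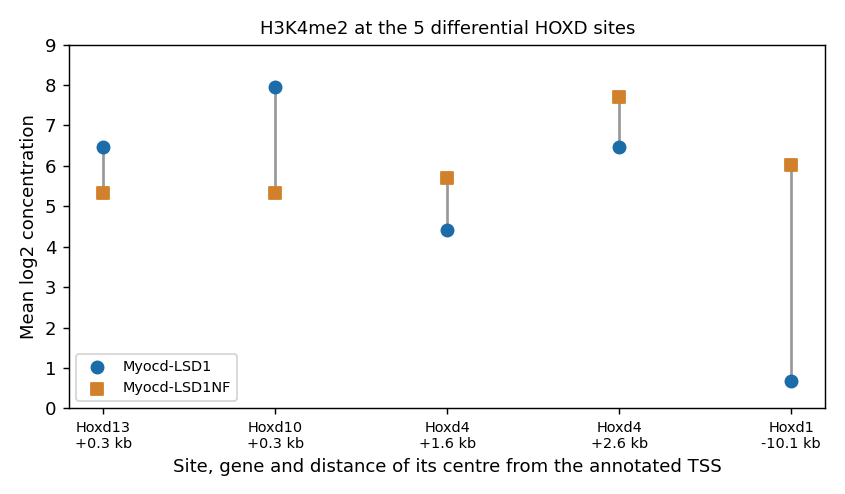
Points give the mean log2 concentration of H3K4me2 (y axis) in Myocd-LSD1 (blue circles) and Myocd-LSD1NF (orange squares) at the 5 HOXD sites of the authors' deposited table, in order along the cluster (x axis, gene and distance of the site's centre from the annotated TSS in kb); each is a mean over n = 3 samples and the table gives no error. Blue is above orange at Hoxd13 and Hoxd10 and below it at the other 3 sites, with the widest gap, 0.68 against 6.02, upstream of Hoxd1.

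Hoxd13, the most posterior gene, which patterns the digits, carried a peak across its TSS in control and Myocd-LSD1, while the Myocd-LSD1NF peak began 197 bp past it. In the authors' deposited table the site (61590319 to 61591096, from -57 to 720 bp around the TSS) had a log2 concentration of 6.47 in Myocd-LSD1 against 5.33 in Myocd-LSD1NF, which is 1.14 higher on the log2 scale or 2.20-fold (FDR 0.00718). Among the 3009 higher sites of the authors' deposited table, 16.0% had a smaller difference. The control TSS peak had the lowest fold enrichment of the 13 HOXD peaks in its list (2.77; 1.53% of all control peaks were lower), while the Myocd-LSD1 peak ranked 5 of 13 (7.07; 53.8% lower) and the Myocd-LSD1NF peak 10 of 14 (4.18; 14.8% lower). A second peak, with its summit at 1611 to 1724 bp past the TSS, was called in all 3 lists. A further peak, with its summit 2544 bp past the TSS in control and 2551 bp in Myocd-LSD1NF, was not called in Myocd-LSD1. No site covers either of these peaks past the TSS.

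Hoxd12 and Hoxd11, which act in mouse limb patterning, had no differential site. The interval between Hoxd13 and Hoxd11 held a single region, called in control (61601476 to 61602107) and Myocd-LSD1 (61601450 to 61602180) and given to Hoxd11 as the nearest named gene, at -2149 and -2076 bp from its TSS. The Hoxd11 TSS peak was called in all lines, with summits 195 bp past the TSS in control and Myocd-LSD1NF and 366 bp in Myocd-LSD1. By fold enrichment it ranked 3 of 13 (8.55, control), 6 of 13 (6.91, Myocd-LSD1) and 5 of 14 (6.37, Myocd-LSD1NF).

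Hoxd10, which patterns hindlimb motor neurons in the mouse, had the strongest call of the cluster. In the authors' deposited table its site (61613576 to 61615390, from -557 to 1257 bp around the TSS) had a log2 concentration of 7.96 in Myocd-LSD1 against 5.33 in Myocd-LSD1NF, which is 2.63 higher on the log2 scale or 6.19-fold (FDR 3.83e-26). It ranked 14 of the 5183 sites of the authors' deposited table by p-value, while 55.6% of the higher sites had a smaller difference. The called peaks also differed in extent: a single peak of 1849 bp in Myocd-LSD1 and of 1499 bp in control, and separate peaks of 239 and 515 bp in Myocd-LSD1NF with an unmarked gap just past the TSS. The H3K4me2 summit of the control peak lay 668 bp past the TSS, that of Myocd-LSD1 823 bp and that of the larger Myocd-LSD1NF peak 670 bp. A FLAG peak (61613851 to 61614338) covered the TSS, with its summit at -167 bp from the rn6 TSS.

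Hoxd9 and Hoxd8, in the middle of the cluster, had no differential site. The Hoxd9 TSS peak was among the highest HOXD peaks of each list, ranking 4 of 13 in control (fold enrichment 8.16), 2 of 13 in Myocd-LSD1 (9.28) and 3 of 14 in Myocd-LSD1NF (11.6). Its summits lay close to the TSS, at -82, -12 and 26 bp, and the FLAG summit lay at -335 bp. The Hoxd8 peak had its summit at almost the same base in all 3 lists, 1346 bp past the annotated TSS in control and 1347 bp in both fusion lines. Its width was also alike, at 820, 815 and 845 bp.

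Both FLAG peaks were low. The fold enrichment was 3.99 at Hoxd10 (15.6% of all FLAG peaks were lower) and 4.55 at Hoxd9 (34.0% lower). Of the 15 HOXD regions 2 (13.3%) overlapped a FLAG peak, against 33.7% of regions over the genome, a difference that was not tested. Of the 5 differential sites 1, the higher Hoxd10 site, overlapped a FLAG peak, and none of the 3 lower sites did. Over the authors' deposited table, FLAG peaks overlapped 32.5% of higher and 22.7% of lower sites. FLAG was mapped in a single line, so nothing compares it between lines.

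Hoxd4, which acts in the hindbrain and cervical vertebrae in the mouse, had 3 peaks in the control list, as many as Hoxd13, 4 for Myocd-LSD1 (2 at Hoxd13) and 3 for Myocd-LSD1NF (also 3 at Hoxd13). Of its annotated TSSs, the one at 61634318 had a peak in each list and no differential site. Both lower sites of the authors' deposited table lie past this TSS inside the gene, at 1436 to 1741 bp (61635754 to 61636059) and at 2034 to 3086 bp (61636352 to 61637404). They lie upstream of the other annotated TSS, at 61641451. In the authors' deposited table the first had a log2 concentration of 4.42 in Myocd-LSD1 against 5.70 in Myocd-LSD1NF (log2 difference -1.28, FDR 0.00673). The second stood at 6.47 and 7.71 in the authors' deposited table, a difference of -1.24 (FDR 2.06e-05). Both are under a single Myocd-LSD1NF peak of 1654 bp. The control peak (1080 bp) and the Myocd-LSD1 peak (778 bp) cover the second only, and the summit was at the same base, 2855 bp past the TSS, in both, and at 2863 bp in Myocd-LSD1NF. These neighbouring sites lie in the same region and are not independent of each other. By fold enrichment this peak ranked 6 of 13 for control, 12 of 13 for Myocd-LSD1 and 6 of 14 for Myocd-LSD1NF. The region 61637662 to 61638316, given to the TSS at 61641451, had a peak in all 3 lists and has no site. A further Hoxd4 peak, 61642982 to 61643437, was called in Myocd-LSD1 alone (fold enrichment 5.57) and has no site.

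Hoxd3, which shapes the first neck vertebrae in the mouse, was marked inside an intron and not at its annotated TSS. The peak was called in Myocd-LSD1 (61661797 to 61662602) and Myocd-LSD1NF (61661812 to 61662614) and not in control. It was high in both fusion lists, with a fold enrichment of 10.6 (1 of 13) and 11.8 (2 of 14), its summit lay 3930 and 3908 bp past the TSS, and no site covers it. The difference from control has no replicate check.

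Hoxd1, which acts in sensory neurons of the mouse, had a distal peak and a TSS peak. The distal region, about 10 kb upstream of the TSS, held the largest difference of the cluster: in the authors' deposited table the site (61675061 to 61675943) had a log2 concentration of 0.68 in Myocd-LSD1 against 6.02 in Myocd-LSD1NF, a log2 difference of -5.34 or 40.5-fold lower (FDR 4.19e-11). It ranked 30 by size among the 2174 lower sites of the authors' deposited table. That rank and the 40.5-fold ratio rest on a Myocd-LSD1 value at this site close to the lowest of its column (-0.08). A peak was called there in control (fold enrichment 7.60) and Myocd-LSD1NF (13.8, higher than 95.4% of that list) and not in Myocd-LSD1, with summits at -9938 and -9941 bp from the TSS. The TSS peak was called in all 3 lists. It ranked 1 of 13 in control (fold enrichment 14.1, higher than 97.7% of the list), 3 of 13 in Myocd-LSD1 (8.50, 68.0%) and 11 of 14 in Myocd-LSD1NF (4.14, 12.9%), and its width fell in the same order at 825, 589 and 473 bp. The authors' deposited table has no site on the Hoxd1 TSS at an FDR of at most 0.05, so this order has no replicate support. For reference, sites of the authors' deposited table with an overall log2 concentration between 5 and 8 were listed with differences as small as 0.50 in size. The concentration at the Hoxd1 TSS is not known, so whether a difference there would have been listed cannot be told.

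The intervals on either side of the cluster also held peaks. The peak nearest to it outside, between Evx2 and Hoxd13, was called in all 3 H3K4me2 lists with fold enrichments of 11.5 (control), 9.87 (Myocd-LSD1) and 11.9 (Myocd-LSD1NF), and in the FLAG list (4.79), and held no differential site. Evx2 is a homeobox gene that shares enhancers with the posterior Hoxd genes in the mouse. The 751 kb between Atp5g3 and Evx2 held 9 control, 7 Myocd-LSD1 and 8 Myocd-LSD1NF peaks of H3K4me2 and 5 FLAG peaks. The 793 kb between Hoxd1 and Hnrnpa3, which include Mtx2, held 9, 5 and 5 and no FLAG peak. Every peak within these intervals was counted, including any at the promoters of genes inside them. In the authors' deposited table these intervals held 3 sites, all higher in Myocd-LSD1. The site 611 kb beyond Hoxd13 stood at 4.53 in Myocd-LSD1 and at the lowest value of the Myocd-LSD1NF column (-0.11), with an FDR of 1.83e-04, per the authors' deposited table. Per the authors' deposited table the sites 278 and 746 kb beyond Hoxd1 had log2 differences of 3.71 (FDR 3.54e-10) and 2.78 (FDR 0.003). All 3 overlapped a control and a Myocd-LSD1 peak and no Myocd-LSD1NF or FLAG peak. By log2 difference, the sites 278 and 746 kb beyond Hoxd1 were higher in Myocd-LSD1, and the site upstream of the Hoxd1 TSS was lower (-5.34). Haglr and Mir10b were not named in any list.

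The other HOX clusters, taken by the same rule, differed in a single direction or not at all. In the authors' deposited table HOXB peaks held 6 sites, all higher in Myocd-LSD1 (0.63 to 4.08), HOXC peaks 6 sites, all lower (-0.92 to -4.81), and HOXA peaks none; the -4.81 and a HOXB value of 4.06 rest on a column's lowest value. HOXD was the only one of the 4 with sites in both directions, which is how it was chosen. Its 2 higher sites belong to paralog groups 10 to 13, and HOXB and HOXC had no site in those groups. Hoxb13 is the only HOXB gene there, and HOXB and HOXC peaks in those groups were not counted. The absence is therefore not read as a trait of HOXD. In paralog groups 1 to 4 HOXD had 3 lower sites, HOXC 1 lower and HOXB 2 higher in the authors' deposited table, so the direction at anterior genes was not shared by the clusters. Peaks present in all 3 lists made up 66.7% of regions in HOXD, 56.5% in HOXB, 46.2% in HOXC and 31.8% in HOXA.

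**Figure D4:**
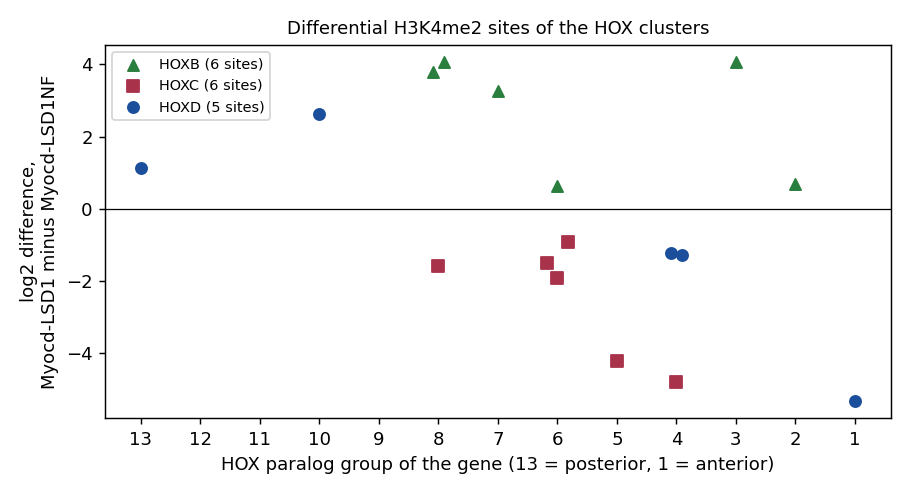
Each point is a differential H3K4me2 site of the authors' deposited table, at the paralog group of its HOX gene (x axis, 13 posterior to 1 anterior; sites of the same gene are set side by side) and its log2 difference (y axis, Myocd-LSD1 minus Myocd-LSD1NF). The 6 HOXB sites lie above 0, the 6 HOXC sites below 0, and HOXD has 2 above 0 at groups 13 and 10 and 3 below 0 at groups 4 and 1; HOXA has none.

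Cofactors and regulators of HOX genes mostly had no differential site. Of 29 genes on that list, 27 had an H3K4me2 peak in either fusion line, and the authors' deposited table held lower sites for 4 and higher sites for 6 of them, with 1 in both counts; over all 19345 genes with a peak 9.28% had a lower and 12.8% a higher site. Meis1, a cofactor that binds DNA with HOX proteins, had 5 higher sites (0.81 to 4.22) beside 1 lower (-3.63) per the authors' deposited table. The Polycomb methyltransferase gene Ezh2 had 2 higher sites (1.66 and 3.33), per the authors' deposited table. The authors' deposited table held none for Kdm1a, Suz12, Eed, Bmi1 and Kmt2a.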

How the data were processed

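H3K4me2 was measured in 3 samples each of control, Myocd-LSD1 and Myocd-LSD1NF cells and FLAG in 4 samples. Bowtie2, deepTools, MACS2, ChIPseeker and DiffBind and build rn6 are named per the submitters' processing notes, without versions, roles or settings; scaling between libraries, Tn5 offsets and whether replicates were pooled: not given in the sources used here. Peak names of each H3K4me2 list carry 1 alignment name ending in -1, so a list may come from replicate 1 alone. Each group has a deposited peak list with a score, a fold enrichment, and a -log10 q-value per peak (the -log10 p-values were not used), per the file headers. The authors' deposited DiffBind table holds mean log2 concentrations per line, their log2 difference (Myocd-LSD1 minus Myocd-LSD1NF, as the values show), a p-value and an FDR, only for sites at an FDR of at most 0.05. Read depth of the samples is unknown.

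Peak starts were turned to 1-based counting, overlaps of at least 1 bp counted, and a promoter taken as within 3 kb of the annotated TSS. The authors' annotated gene gave each peak its member. No test was added. The members and lists were chosen with earlier results of these data known. All members are named; other genes come from lists of flanking genes, HOX clusters, cofactors and cell type markers. Alternatives changed the promoter distance, overlap, peak threshold, list length, FDR, size and membership. The overlap code was tested on simulated data and recovered 100% of 500 planted overlaps. Python 3.11.15, numpy 2.4.6, pandas 2.3.3 and matplotlib 3.10.9 were used.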

Additional observations from a re-analysis of the deposited data

How the results depend on the processing

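The count of 3 lower and 2 higher HOXD sites was unchanged at an FDR of at most 0.01, at a difference of at least 1, with an overlap of at least 50% of the shorter interval and with all sites between the end genes. Every one of these sites had an FDR of at most 0.00718 and a difference of at least 1.14 in size. The FDR and size cutoffs could therefore not remove any, and the cluster was chosen on these sites. Of 47 alternative values over all HOXD results, 31 stayed within 1.5 times the reported one and 16 did not. All 16 came from keeping the 50% of peaks with the strongest q-values, which by construction leaves fewer peaks: 6 HOXD peaks in each H3K4me2 list (5880, 5702 and 5788 bp in control, Myocd-LSD1 and Myocd-LSD1NF), 3 members with a promoter peak in Myocd-LSD1NF, 2 of 6 peaks per list shared with both other lists (most were shared in the full lists), and 0 FLAG peaks (0 bp, 0 members), so that 0 H3K4me2 peaks of any list overlapped FLAG. The FLAG signal at Hoxd10 and Hoxd9 therefore rests on weak peaks. Shares over all peaks were not computed at this threshold. No paired analysis was possible because the files give no values per sample, and leaving out a replicate was not run for the same reason. Single peaks and sites carry no error here, and the depth behind them is unknown.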
